A study of Mus musculus with 6 samples.

Results

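The genes described here are 10 mouse genes of the Wnt, R-spondin and hepatocyte growth factor (HGF) systems, through which endothelial and stellate cells of the liver signal to their neighbours. They are the ligand genes Wnt2, Wnt9b, Rspo3 and Hgf, the receptor genes Fzd4, Fzd6, Lrp5, Lrp6 and Met, and the target gene Axin2. All 10 were found by symbol among the 40879 genes of each count file, and 8 of them had enough reads to be tested. Axin2 and Wnt9b did not. The members are a list of named genes grouped by role, with no threshold on a measured value.

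The samples were primary hepatic stellate cells of wild-type male mice, kept for 24 h with vehicle (3 libraries) or with APB-R3 (3 libraries), an engineered interleukin-18 binding protein that captures the cytokine IL-18. The number given for the APB-R3 dose is 150, in µg/ml in one label and µg/kg in another. The sources used here do not give the age and strain of the mice, the make-up of the vehicle or whether replicates came from separate animals or cultures, and p-values thus reflect the spread of these libraries alone, part of which may be technical. Levels are counts scaled to the library total (CPM), from 3′ tag libraries in which the count does not grow with transcript length, and all levels of different genes are set side by side on that scale. Libraries held between 8323809 (APB-R3 replicate 1) and 10792531 counts.

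The cells are labelled as stellate cells, which are known for storing retinoids and for making matrix when activated. The 16 listed markers of liver endothelium summed to 6753 to 7617 CPM in vehicle and 6398 to 7304 CPM in APB-R3, led by the hyaluronan receptor gene Lyve1. Quiescent stellate markers, 14 genes led by the proteoglycan gene Dcn, summed to 438 to 525 and 473 to 530 CPM, and 10 activated stellate markers led by the matrix crosslinking enzyme gene Loxl2 to 1360 to 1513 and 1138 to 1371 CPM. The 12 macrophage markers (led by Cd5l) summed to 401 to 593 and 472 to 668 CPM, the 8 of portal fibroblasts and mesothelium (led by Fbln2) to 69.2 to 81.1 and 58.0 to 75.6 CPM, and the 6 of cholangiocytes (led by Cftr) to 18.9 to 21.4 and 22.6 to 24.9 CPM. Hepatocyte markers, led by Alb, summed to 12.8 to 22.2 CPM in 5 libraries and to 77.5 CPM in vehicle replicate 2. Neutrophil markers, led by S100a8, stayed at or under 8.32 CPM and lymphocyte markers, led by Ms4a1, at or under 0.725 CPM, and Cd3e, Cd79a, Ly6g and Camp had no count. In such bulk RNA with markers of several cell types, fewer cells of a type and less RNA per cell cannot be told apart.

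Wnt proteins are lipid-modified ligands that bind a Frizzled receptor together with the co-receptor LRP5 or LRP6 and keep beta-catenin from being degraded, so that it can switch on genes with TCF/LEF factors. R-spondins strengthen this signal by removing the ubiquitin ligases ZNRF3 and RNF43, which would otherwise take Frizzled receptors off the cell surface. In the liver, endothelial cells of the central vein and sinusoid are known as a source of WNT2, WNT9B and RSPO3, which set the pericentral programme of hepatocytes. HGF, made mainly by non-parenchymal cells, acts on hepatocytes through the receptor tyrosine kinase MET.

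Promoter sequences are shown for Wnt2, the most counted Wnt gene, for Wnt9b, its partner in the central vein that was hardly counted, and for the target gene Axin2, which was hardly counted either. RefSeq (build GRCm38.p6, matched by symbol, while the counts were made on GRCm39) gave a promoter window for 6 of the 10 members. Each window holds 300 bases, from 250 bases before a transcription start site to 50 after it, and is printed 5′ to 3′ on the strand of the gene. Capitals mark GATAA, a form of the GATA core bound by GATA factors, on either strand, and nothing else. Other letters after GATA, as in gatag in the Wnt2 window, were not searched.

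Wnt2 (chr6:18030396-18030695, minus strand): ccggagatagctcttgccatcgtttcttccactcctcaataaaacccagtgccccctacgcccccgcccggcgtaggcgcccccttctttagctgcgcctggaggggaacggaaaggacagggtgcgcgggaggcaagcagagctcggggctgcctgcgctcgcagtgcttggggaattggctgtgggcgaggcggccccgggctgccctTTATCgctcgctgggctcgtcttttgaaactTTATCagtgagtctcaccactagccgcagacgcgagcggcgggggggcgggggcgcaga

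Wnt9b (chr11:103749772-103750071, minus strand): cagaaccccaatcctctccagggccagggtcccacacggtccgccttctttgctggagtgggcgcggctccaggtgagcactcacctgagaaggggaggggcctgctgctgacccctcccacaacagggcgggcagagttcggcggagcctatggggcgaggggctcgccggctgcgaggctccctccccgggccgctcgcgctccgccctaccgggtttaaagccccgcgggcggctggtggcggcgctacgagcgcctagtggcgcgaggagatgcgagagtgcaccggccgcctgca

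Axin2 (chr11:108920099-108920398, plus strand): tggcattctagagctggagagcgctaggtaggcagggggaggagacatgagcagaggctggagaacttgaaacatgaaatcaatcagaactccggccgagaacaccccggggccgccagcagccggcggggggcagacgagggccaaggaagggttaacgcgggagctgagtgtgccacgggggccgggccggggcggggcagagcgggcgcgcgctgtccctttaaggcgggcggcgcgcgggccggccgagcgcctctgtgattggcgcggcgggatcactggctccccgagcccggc

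The Wnt2 window held GATAA 2 times, both on the opposite strand and thus printed as TTATC, starting at positions −40 and −9 from the start site. The windows of Wnt9b and Axin2, like those of Fzd4, Hgf and Met, held it 0 times. Of 32851 such windows of all genes in the table, 25.4% held GATAA at least once and 5.27% at least 2 times. CTTTGA, a TCF/LEF core that does not overlap GATAA, was found on either strand in 16.0% of all windows and in 0 windows of these 6 members. Such matches describe letters in a window only.

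By level over the 6 libraries, the receptor genes Fzd4, at 190 ± 22.3 CPM, and Lrp6, at 89.8 ± 4.35 CPM, came first, and Wnt2 followed at 61.2 ± 5.32 CPM (SD, n = 6). The ranges of these 3 genes over the libraries did not meet, and Fzd4 lay above 92.8% of the tested genes. Wnt2 touched the range of Hgf (46.6 ± 8.38 CPM), below it in APB-R3 replicate 3. Hgf, Lrp5 (45.6 ± 7.24 CPM) and Fzd6 (44.6 ± 8.25 CPM) could not be put in order, since each stood above the next in only some libraries. Rspo3 (32.2 ± 3.04 CPM) and Met (26.5 ± 2.01 CPM) came next. Their ranges met too, although Rspo3 was the higher of both in 5 libraries, and Met lay above 54.9% of tested genes. Axin2, at 0.313 CPM over all libraries together, and Wnt9b, at 0.0165 CPM, came last by far.

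The first question was whether APB-R3 changed the level of any member. No member passed the test: of the 8 tested, 6 (Wnt2, Rspo3, Fzd4, Fzd6, Lrp5 and Lrp6) had a log2 fold change under 0 for APB-R3 over vehicle and 2 (Hgf and Met) above 0, with a median of −0.11 against 0.003 over all tested genes. Wnt2, Rspo3, Fzd4 and Lrp6 turned to between 0.000257 and 0.04 when libraries were scaled by the activated stellate markers, a scaling that moved the median of all genes to 0.14. Among all 12776 tested genes, 0 (0%) had an adjusted p under 0.05 by edgeR's quasi-likelihood method, and 425 (3.33%) had an unadjusted p under 0.05, against 0 of the 8 members. With DESeq2 and with limma-voom the number of genes passing was 0 as well, beside 376 and 427 at an unadjusted p under 0.05. Met was the only tested member with no overlap between the groups, with all 3 APB-R3 libraries higher, which held for 4.41% of all tested genes, while 4.38% had all 3 lower. The 95% intervals of the 8 members, unadjusted for the number of genes, reached down to 0.712-fold (Lrp5) and up to 1.37-fold (Met).

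The 12 pathway lists around the members, 137 genes in all, were counted the same way. Of their 91 tested genes 41 were higher and 50 lower, with a median of −0.02, and 0 passed. An unadjusted p under 0.05 was seen for 3 of them (3.30%), the receptor gene Fzd2, the dishevelled gene Dvl2 and the adaptor gene Shc1. The groups did not overlap for 6 of the 91 (6.59%), a smaller share than the 8.80% of all tested genes. These 6 were Met, Kit, Fzd2, Fzd7, Shc1 and Gab1.

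**Figure D1:**
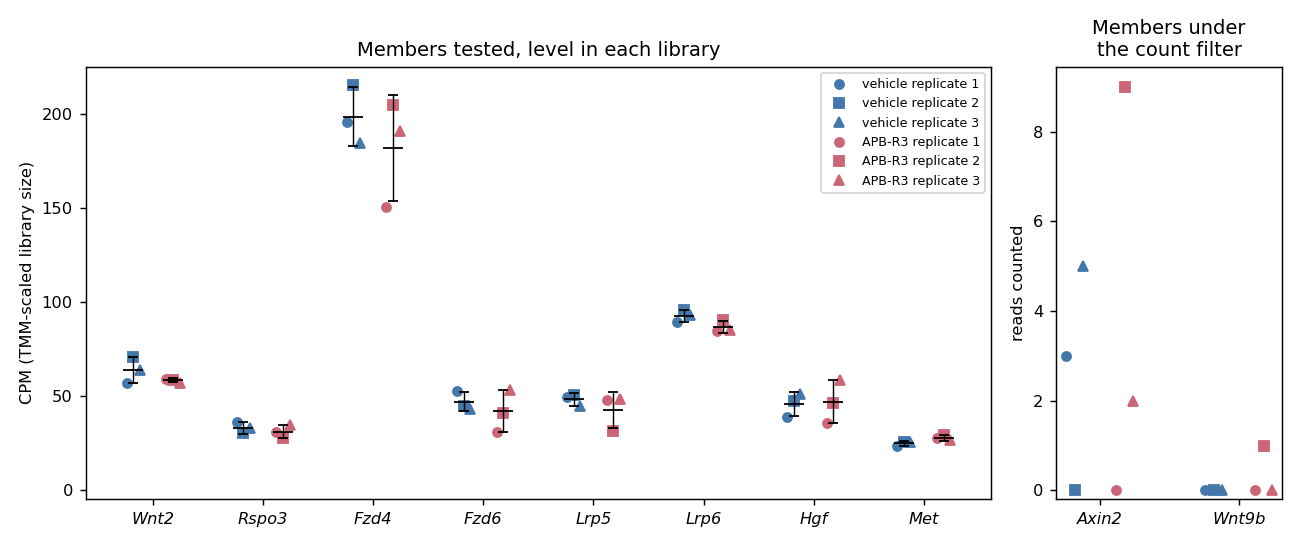
Left, the level of the 8 tested members in each library, in CPM on a linear axis, with vehicle in blue and APB-R3 in red, 1 marker shape per replicate, and black bars for the mean ± SD of each group (n = 3). Right, the reads counted for Axin2 and Wnt9b in the same libraries. Fzd4 stood highest in every library, and the groups overlapped for every tested member except Met.

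**Figure D2:**
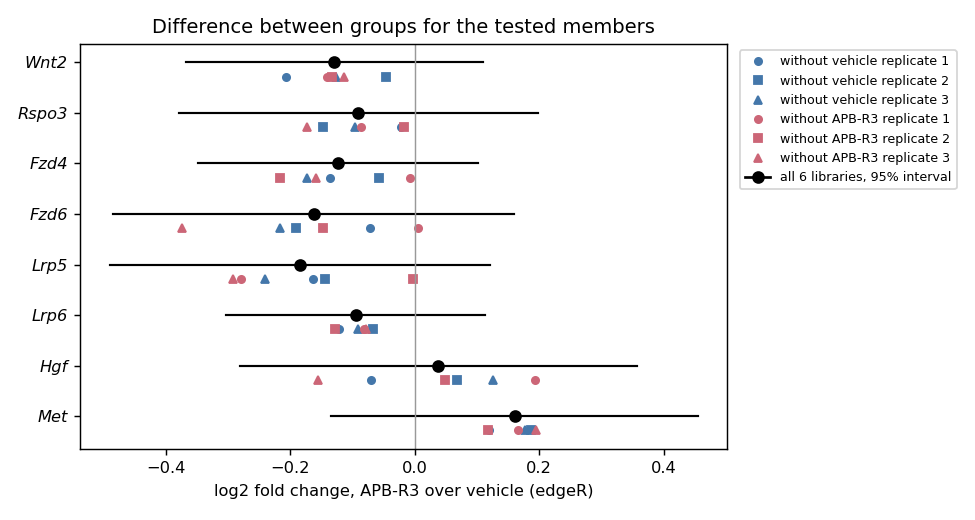
Log2 fold change of APB-R3 over vehicle for the 8 tested members (black points, with 95% intervals from edgeR, n = 3 against 3), and below each the value with 1 library left out (coloured by group, shaped by replicate). Every interval crosses 0. Without APB-R3 replicate 1 the points of Fzd4 (−0.007) and Fzd6 (0.005) lie near 0, as does Lrp5 without APB-R3 replicate 2 (−0.003).

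Among the ligands, Wnt2 had 56.9, 70.7 and 64.2 CPM in vehicle replicates 1 to 3 and 59.3, 58.8 and 57.3 CPM in APB-R3. The APB-R3 libraries lay close together, and vehicle replicate 1 was the lowest of all 6, so the groups overlapped. Its log2 fold change for APB-R3 over vehicle was −0.13 (SE 0.11, 95% interval −0.37 to 0.11). Rspo3 had 36.4, 30.3 and 33.0 CPM in vehicle and 30.9, 28.1 and 34.6 CPM in APB-R3, again with overlap, and a log2 fold change of −0.09 (SE 0.14, interval −0.38 to 0.20). Within each library, the reads of Wnt2 were 1.57 to 2.33 times those of Rspo3, a ratio into which no scaling enters, with means of 1.95 ± 0.383 in vehicle and 1.89 ± 0.223 in APB-R3. Neither gene passed (edgeR adjusted p = 0.9998 for each). Exons of Rspo3 overlap those of Gm48159 on the opposite strand in GENCODE M21, and without a stated strand setting the reads of both cannot be told apart.

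Wnt2 supplied most of the Wnt ligand reads. It took 60.5%, 65.3% and 64.4% of the counts of all 19 Wnt genes in vehicle and 60.8%, 57.6% and 58.3% in APB-R3, with overlap only through vehicle replicate 1 and APB-R3 replicate 1. The Wilson 95% interval of 1 library was as wide as 57.4% to 64.1% (APB-R3 replicate 1), which covers counting error only. Wnt5b, a ligand of beta-catenin-independent signalling, was next with 17.6% ± 2.78 (SD, n = 6), followed by Wnt9a with 7.92% ± 1.34, Wnt4 with 7.46% ± 1.46 and Wnt5a with 5.45% ± 1.26. The other ligands were near or at 0, and 7 of the 19 had no count at all. Of the 5 Wnt ligands tested, none passed, and those with the smallest p were Wnt2 and Wnt5b (16.0 ± 1.44 CPM in vehicle, 19.03 ± 2.57 CPM with APB-R3, log2 fold change 0.25, SE 0.18).

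Wnt9b, known beside Wnt2 in the central vein, had 1 count in 6 libraries, in APB-R3 replicate 2. Over all libraries that is 0.0165 CPM, between 0.000417 and 0.0918 CPM by an exact Poisson interval at 95%. In each vehicle library the count of 0 allows up to 0.284 to 0.287 CPM (3 counts). Wnt9b was thus not detectable in vehicle at this depth. Other endothelial genes of the central vein and pericentral sinusoid were well counted in the same libraries. The receptor tyrosine kinase gene Kit had 260 ± 3.10 CPM in vehicle against 240 ± 10.01 CPM with APB-R3, all 3 below vehicle, and the fatty acid binding protein gene Fabp4 had the highest level of that list at 842 ± 89.6 CPM (n = 6). All 7 tested genes of this list, Wnt2 and Rspo3 among them, had a log2 fold change under 0, with a median of −0.10. Of this list, values under other scalings were taken only for Wnt2, Rspo3, Kit and Lhx6. Wnt2, Rspo3 and Kit (0.02) turned above 0 under scaling by activated stellate markers, which raised the median of all genes as well. Of those 10 markers 4 were higher and 6 lower with APB-R3, with a median of −0.06. An unadjusted p under 0.05 (edgeR) was seen for 3 of them (30%), all lower, against 3.33% of all tested genes. The transcription factor gene Lhx6, at −0.24 (SE 0.17), had the smallest p and was at −0.11 under that scaling. None of the 7 passed, and endothelial markers as a whole had a median of −0.09, with 12 of 16 under 0. In the periportal list the scavenger receptor gene Msr1 was highest at 51.2 ± 7.78 CPM, and the smallest p went to Ntn4, at 1.11 ± 0.354 CPM in vehicle against 2.07 ± 0.814 CPM with APB-R3, and Efnb2, at 42.0 ± 7.18 against 38.3 ± 8.13 CPM.

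**Figure D3:**
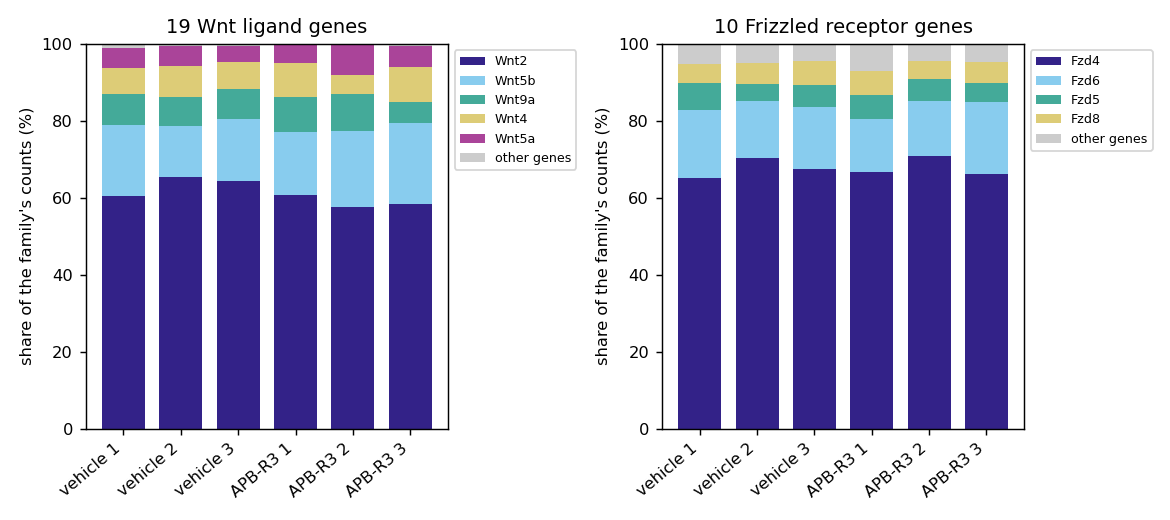
Share of a family's reads taken by its leading genes in each library, in percent, for the 19 Wnt ligand genes (left) and the 10 Frizzled genes (right). Wnt2 took 57.6% to 65.3% of Wnt reads and Fzd4 65.3% to 70.9% of Frizzled reads.

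Rspo3 made up nearly all R-spondin reads, between 98.6% and 100% of the counts of the 4 genes in a library. Rspo1 gave the rest, and Rspo2 and Rspo4 had no count. The partners of R-spondins were scarce by comparison. The receptor gene Lgr4 had 2.97 ± 1.39 CPM and the ligase gene Znrf3 4.204 ± 1.73 CPM (SD, n = 6), and the second ligase gene, Rnf43, had no count in any library. Lgr5, an R-spondin receptor gene that is itself a Wnt target, had 0.866 ± 0.251 CPM and a log2 fold change of −0.31 (SE 0.72). On the side of Wnt release, Wls, the carrier that takes Wnt proteins to the cell surface, had 138 ± 6.83 CPM, and Porcn, the enzyme that attaches their lipid, 2.32 ± 1.198 CPM. Neither passed. Wls differed by −0.07 (SE 0.09), and by 0.06 under scaling by activated stellate markers, and Porcn by −0.17 (SE 0.62), with either sign when single libraries were left out.

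Among the receptors, Fzd4, which also serves the ligand norrin in endothelium, had 196, 216 and 185 CPM in vehicle and 151, 205 and 191 CPM in APB-R3. APB-R3 replicate 1 was below all others, and the groups overlapped. The log2 fold change was −0.12 (SE 0.11, interval −0.35 to 0.10), and −0.007 without that library. Tspan12, the tetraspanin that joins Fzd4 in norrin signalling, had 36.4 ± 4.58 CPM (n = 6) and differed by −0.03 (SE 0.14).

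Fzd6, a Frizzled receptor known for planar cell polarity, had 52.9, 45.0 and 43.5 CPM in vehicle and 31.2, 41.3 and 53.5 CPM in APB-R3. The lowest and the highest value of the 6 were both in APB-R3, in replicates 1 and 3. In GENCODE M21 its exons overlap those of Gm26704 on the opposite strand. Its log2 fold change was −0.16 (SE 0.16, interval −0.48 to 0.16). It turned to 0.005 without APB-R3 replicate 1 and was −0.37 without APB-R3 replicate 3, with an unadjusted p of 0.0252 there. Fzd4 and Fzd6 together took most Frizzled reads, 67.9% ± 2.30 and 15.8% ± 1.92 (n = 6), with 65.3% to 70.4% for Fzd4 in vehicle and 66.3% to 70.9% in APB-R3.

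The co-receptor genes Lrp5 and Lrp6 encode closely related proteins of the LDL receptor family. Lrp6 was the steadiest member, with 89.5, 95.7 and 93.2 CPM in vehicle and 84.9, 90.7 and 85.0 CPM in APB-R3. Only APB-R3 replicate 2 reached into the vehicle range, and the log2 fold change was −0.09 (SE 0.10, interval −0.30 to 0.11). Lrp5 had 49.9, 50.8 and 44.6 CPM in vehicle and 48.1, 31.4 and 48.6 CPM in APB-R3. Here 1 library, APB-R3 replicate 2, stood low, and the other 5 lay within 44.6 to 50.8 CPM. The log2 fold change of −0.18 (SE 0.15, interval −0.49 to 0.12) was −0.003 without it. Reads of Lrp6 were 1.75 to 2.09 times those of Lrp5 in 5 libraries and 2.89 times in APB-R3 replicate 2.

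Of the 17 receptor genes listed, Ryk, an atypical Wnt receptor, had the highest level at 202 ± 25.01 CPM, close to Fzd4. The smallest p in the list belonged to Fzd2, with 1.34, 1.72 and 1.71 CPM in vehicle and 4.23, 2.70 and 4.39 CPM in APB-R3. All APB-R3 libraries lay above all vehicle libraries, at few reads (159 in all), with a log2 fold change of 1.24 (SE 0.47). Fzd7 went the other way, at 5.02 ± 0.551 CPM in vehicle against 3.25 ± 1.006 CPM with APB-R3 (−0.63, SE 0.38), also without overlap. Neither gene passed over all genes (adjusted p = 0.9998 for each, edgeR).

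**Figure D4:**
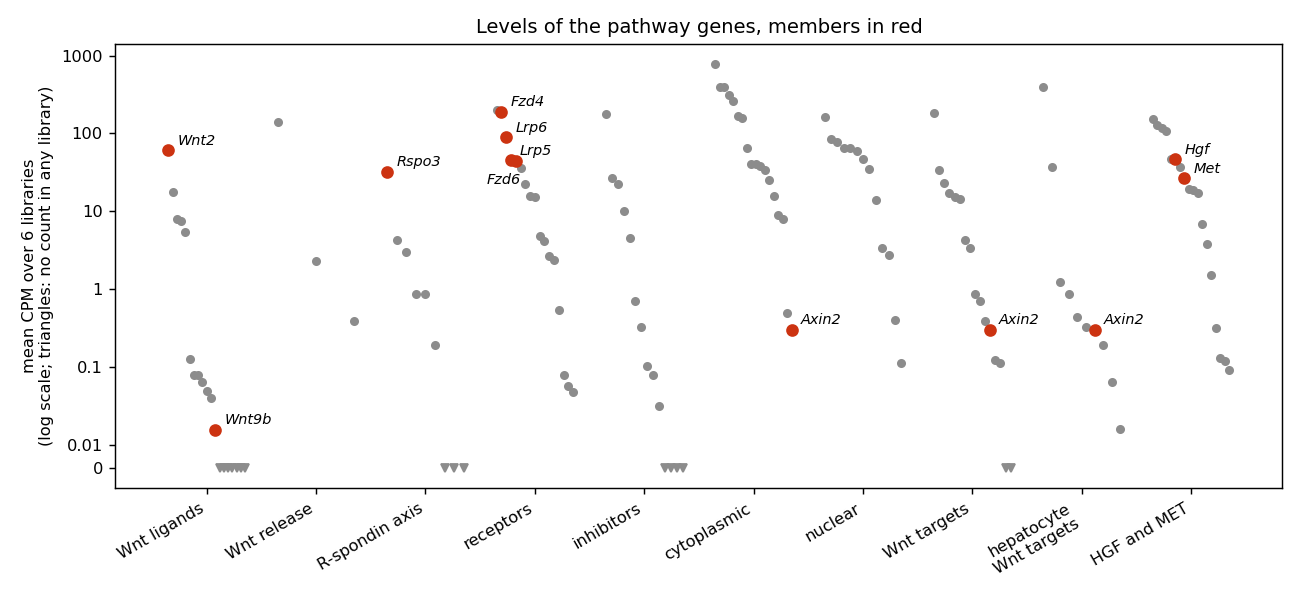
Mean CPM over the 6 libraries (log scale) of each gene in the pathway lists other than the endothelial ones, with members in red and other genes in grey; genes with no count are triangles at 0. Wnt2 and Rspo3 lead their lists, and Axin2 and Wnt9b lie far below the other members.

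Axin2, a scaffold of the complex that degrades beta-catenin and a target that Wnt signalling switches on in many tissues, had 3, 0 and 5 reads in vehicle and 0, 9 and 2 in APB-R3. Its 19 reads come to 0.313 CPM, between 0.188 and 0.489 CPM by an exact Poisson interval at 95%. The libraries of each group included one with no read, and no test was made. In GENCODE M21, exons of Axin2 overlap those of Gm11670 on the opposite strand, so its count is uncertain. Its paralog Axin1 had 37.9 ± 3.76 CPM (n = 6).

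Other target and feedback genes of Wnt signalling were uneven in level. Ccnd1, the cyclin D1 gene, which many growth signals raise, was highest at 181 ± 12.8 CPM, and the feedback inhibitor genes Nkd1 and Nkd2 had 16.9 ± 2.23 and 22.8 ± 2.38 CPM (n = 6). The target gene Sp5, a transcription factor, had 15.2 ± 2.50 CPM. Lef1 had 7 reads in all, and Rnf43 and Dkk1 had none. Of 16 such genes, 9 were tested and 0 passed, with 7 of the 9 above 0 on the log2 scale and a median of 0.13. Of all 12776 tested genes, 6481 were above 0, with a median of 0.003. The smallest p went to Bambi, a TGF-beta pseudoreceptor (12.5 ± 1.82 CPM in vehicle, 16.1 ± 5.02 CPM with APB-R3), and to Myc (31.2 ± 5.08 against 37.1 ± 8.52 CPM), and their groups overlapped. Of the pericentral hepatocyte genes, Glul, glutamine synthetase, was counted at 378 to 430 CPM in the 6 libraries, while the cytochrome genes Cyp2e1 and Cyp1a2, which mark hepatocytes, were below the count filter. Oat, the other well counted gene of that list, had 34.8 ± 5.15 CPM in vehicle against 38.3 ± 2.46 CPM with APB-R3, and Slc1a2 0.988 ± 0.693 against 1.44 ± 1.42 CPM.

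The intracellular genes ranged widely in level. Ctnnb1, the beta-catenin gene, had 774 ± 38.0 CPM (n = 6), above 98.9% of the tested genes. Among the DNA-binding factors, Tcf7l1 had 85.9 ± 3.63 CPM and Tcf7l2 65.6 ± 6.60 CPM, and the beta-catenin inhibitor Ctnnbip1 led the nuclear list at 164 ± 20.2 CPM. Dvl2, a dishevelled gene that relays the Frizzled signal, had 21.6 ± 4.84 CPM in vehicle against 28.7 ± 3.03 CPM with APB-R3, in overlapping groups that differed by 0.41 (SE 0.17). Tnks, whose product marks AXIN for degradation, differed by 0.22 (SE 0.14), the cofactor gene Bcl9 by −0.22 (SE 0.20) and Tcf7 by 0.49 (SE 0.45). Of the secreted inhibitors, Frzb was counted at 175 ± 13.4 CPM. The smallest p in that list went to Kremen1, at 0.10 (SE 0.18), and Sfrp1, at 0.09 (SE 0.19), both of either sign when single libraries were left out. None of these genes passed.

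Hgf had 38.9, 47.7 and 51.5 CPM in vehicle and 35.9, 46.6 and 58.9 CPM in APB-R3. As for Fzd6, both extremes were APB-R3 libraries, replicate 1 lowest and replicate 3 highest. Its log2 fold change of 0.04 (SE 0.15, interval −0.28 to 0.36) turned to −0.07 without vehicle replicate 1 and to −0.15 without APB-R3 replicate 3. Exons of Hgf overlap those of Gm43489 on the same strand in GENCODE M21, so its count is uncertain.

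The receptor gene Met had 23.6, 25.8 and 25.6 CPM in vehicle and 27.7, 29.6 and 26.6 CPM in APB-R3. All 3 APB-R3 libraries lay above all 3 vehicle libraries, by little. The log2 fold change was 0.16 (SE 0.14, interval −0.13 to 0.45), and Met did not pass (edgeR adjusted p = 0.9998, unadjusted p = 0.270). Its direction was the same with each library left out, from 0.12 to 0.19. Cholangiocyte markers, whose cell type is known to make MET, also summed higher in all APB-R3 libraries (22.6 to 24.9 against 18.9 to 21.4 CPM), while hepatocyte markers summed to 12.8 to 22.2 CPM in APB-R3 and 15.6 to 77.5 CPM in vehicle. Their part in the level of Met was not tested. Within a library, reads of Hgf were 1.30 to 2.21 times those of Met.

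Around this pair, transcripts of proteins that activate the HGF precursor or relay the MET signal were counted too. Hgfac, the main serum activator of HGF, had 7 reads in all. MET adaptors were well counted, led by the ubiquitin ligase gene Cbl at 153 ± 17.2 CPM (n = 6). Shc1 had 46.4, 58.3 and 48.4 CPM in vehicle and 42.4, 43.1 and 41.8 CPM in APB-R3, all below vehicle, with a log2 fold change of −0.27 (SE 0.12). Gab1, the docking protein most closely tied to MET, had 20.9 ± 0.995 CPM in vehicle against 16.9 ± 2.10 CPM with APB-R3, also without overlap (−0.31, SE 0.17). Neither passed over all genes (edgeR adjusted p = 0.9998 for each).

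The members also differed in how far the libraries of a group lay apart, which was not tested. The coefficient of variation over the 3 APB-R3 libraries was 26.6% for Fzd6, 24.5% for Hgf, 22.9% for Lrp5 and 15.5% for Fzd4. Over the vehicle libraries the same genes varied by 10.7%, 14.0%, 6.84% and 7.92%. Wnt2 went the other way, with 10.8% in vehicle and 1.81% in APB-R3. Counting error alone gives an expected 4.02% at the mean count of Wnt2 over the 6 libraries, and its 1.81% lay below that. The expected value is no lower bound, and a coefficient from 3 libraries can fall on either side of it. The same expected value was 4.69% for Fzd6, 4.59% for Hgf, 4.67% for Lrp5 and 2.27% for Fzd4. Rspo3 (9.11% and 10.6%), Met (4.81% and 5.29%) and Lrp6 (3.40% and 3.83%) varied about as much in vehicle as in APB-R3. Their values expected from counting error were 5.54%, 6.11% and 3.31%, so Met lay below its expected value and Lrp6 close to it. Fzd4, Fzd6 and Hgf were lowest in APB-R3 replicate 1, where the summed endothelial markers (6398 CPM) and the summed activated stellate markers (1138 CPM) were lowest too. Per read of the summed endothelial markers, APB-R3 replicate 1 was still the lowest library for Fzd4 (2.35%), Fzd6 (0.487%) and Hgf (0.561%). The groups of Met did not overlap on that scale either (0.336% to 0.357% in vehicle, 0.365% to 0.432% in APB-R3). Per read of the summed activated stellate markers, APB-R3 replicate 1 was the lowest library for Fzd4 (13.2%) and Fzd6 (2.74%). It was not the lowest for Hgf, at 3.15% against 2.86% in vehicle replicate 1. The part of the marker levels in these values was not tested.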

How the data were processed

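Messenger RNA was counted in 3 vehicle and 3 APB-R3 libraries. The deposited values are raw read counts per gene symbol, made by the authors with bcl2fastq 2.20.0.422, fastp, STAR and HTSeq on GRCm39, per the submitters' processing notes. The sources used here do not give other versions, the annotation release, the strand setting or any use of molecular identifiers. The Wilson and Poisson intervals cover counting error only. Intervals of log2 fold changes come from the edgeR fit and include the spread between libraries. The number in each file header is higher by 1 than in the title, and titles were used.

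APB-R3 was set against vehicle with edgeR 4.0.16 in R 4.3.3. The default filterByExpr (minimum count 10, minimum total 15) was followed by TMM factors and the quasi-likelihood test with treatment as the only term, Benjamini-Hochberg adjusted over 12776 genes. Tests are two-sided, and a gene passed at an adjusted p under 0.05. CPM are counts over TMM-scaled library totals. The standard error is the log2 fold change over the root of F. A median is over tested genes. The script was tested on simulated data. Counts of any library pair differed by more than sampling noise (chi-square per degree of freedom 5.54 to 13.6).

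The members and the 21 gene lists (227 genes, all found) were chosen with earlier results of these data known. Named are all members, receptor-complex partners of members, each pathway list's highest gene and its 2 genes with the smallest p, and each marker list's highest gene and genes at 0. One marker that falls under this rule is not reported here. Others (Axin1, Nkd1, Nkd2, Sp5, Lef1, Dkk1, Tcf7l1, Tcf7l2, Cyp2e1, Cyp1a2, and family members behind a share) were named after their values were seen, as were both promoter motifs. Alternatives were other scalings, filters, DESeq2 1.42.0, voom of limma 3.58.1, a replicate block, thinned counts and libraries left out.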

Additional observations from a re-analysis of the deposited data

How the results depend on the processing

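None of the 8 tested members passed under any of 18 alternatives, and of their 144 log2 fold changes 8 turned sign. Under scaling by activated stellate markers Wnt2 was at 0.0114, Rspo3 at 0.0385, Fzd4 at 0.000257, Lrp6 at 0.0394, Wls at 0.0633, Kit at 0.0241 and Efnb2 at 0.00198, where the median of all genes was 0.14 (0.07 with endothelial markers). With limma-voom Slc1a2 was at −0.0897. Leaving out 1 library, or both APB-R3 replicate 1 and vehicle replicate 2, gave −0.216 to 0.0600 for Fzd4 (below 0 with any 1 library left out), −0.374 to 0.00548 for Fzd6, −0.155 to 0.225 for Hgf, −0.665 to 0.367 for Porcn, −0.0554 to 0.301 for Kremen1, −0.155 to 0.401 for Sfrp1, −0.266 to 0.0303 for Efnb2 and −0.335 to 1.401 for Slc1a2. The count of all genes that passed was 20 of 20496 with no low-count filter, with 0 members among them, and 0 to 1 with a library left out (Hp, without vehicle replicate 3). The cause was not tested. Same-numbered libraries deviated together with correlations of 0.0225, 0.027 and 0.048, all under 0.1, and each library correlated best with its own number. The numbers were not taken to pair the libraries, and whether they mark a shared source is not given in the labels. With the replicate block 0 genes passed, with 539 at an unadjusted p under 0.05, and Met was at 0.16. At this depth Axin2 and Wnt9b could not be compared.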
